A study of Mus musculus with 16 samples.

Results

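The tetraspanins were followed in RNA sequencing of mouse bone marrow-derived monocytes (BMDMs) as 27 genes, which are the genes of the deposited table named Tspan with a number together with Cd9, Cd37, Cd53, Cd63, Cd81, Cd82 and Cd151. They were 27 of 21898 genes listed. Membership follows from the gene name, not from a measured value.

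Tetraspanins are small membrane proteins that cross the membrane repeatedly and gather integrins, proteases and immune receptors into patches of the cell surface. In cells of the macrophage lineage they are known for regulating adhesion, vesicle traffic and the fusion of mononuclear cells into multinucleated cells, the step that also makes an osteoclast. CD9 and CD81 restrain macrophage fusion in mice, CD63 marks late endosomes and exosomes, and the TspanC8 subgroup escorts the protease ADAM10 to the cell surface.

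The cells were grown from leg bone marrow of C57BL/6 mice and sequenced in 4 groups of 4 libraries. M + vector and M + iBRD9 received M-CSF at 50 ng/ml, the growth factor that keeps the macrophage lineage alive. MR + vector and MR + iBRD9 received the same M-CSF together with RANKL at 100 ng/ml, the cytokine that starts osteoclast differentiation. iBRD9 blocks the bromodomain of BRD9, which belongs to the non-canonical BAF complex that remodels chromatin, and the control treatment is called vector here. The strain was the same in all groups, and the labels name no genetic change. The labels number the replicates 1 to 4 and do not say whether they were separate cultures or animals, so that p-values cover the spread among these libraries, part or all of which may be technical.

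Libraries held 15372775 to 18987926 counts, and mitochondrial genes took 1.70% to 1.93% of them. M + iBRD9 replicate 4 stood apart from its group. Its pairs had a chi-square per degree of freedom of 7.65 to 11.7, against at most 6.47 in every other pair within a group. The changes of Cd37 and Cd82 with iBRD9 in cells without RANKL are also given without this library. So is the adjusted p of the Cd9 interaction. For the other changes that use this library, the estimate without it is not given. To a lesser degree M + vector replicate 4 also stood apart, at 5.21 to 5.66 against 3.15 to 3.39 in the other pairs of its group. Summed over 8 macrophage markers, the level was 22600 to 24300 CPM in M + vector, 23200 to 26100 in M + iBRD9, 24000 to 25200 in MR + vector and, below it, 21400 to 22200 in MR + iBRD9, where CPM are read counts scaled to a common library size with TMM factors. Lyz2, the lysozyme gene, made most of this sum, with group means of 16540 to 19960 CPM. Summed over 8 osteoclast markers, the level was 149 to 168 CPM in M + vector and 168 to 186 in M + iBRD9, and with RANKL it was 746 to 803 with vector and 858 to 906 with iBRD9. Mmp9 made most of this sum, at 645 to 702 CPM in MR + vector and 760.3 to 804 in MR + iBRD9, while Ctsk, the cathepsin of bone resorption, was 14.4 to 16.3 and 4.63 to 6.11 CPM. Calcr, the calcitonin receptor of mature osteoclasts, had no count in any library. In such bulk samples, fewer cells of a type and less RNA per cell cannot be told apart.

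The start regions of 3 members are shown because the results turn on them. In the fit of all 16 libraries, Cd82 is the single member called higher with RANKL. Cd37 is the single member called higher there with iBRD9 in both culture states, and Cd53 has the highest level. Each sequence runs from 250 bases before to 50 bases after the start of the canonical transcript in GENCODE, on GRCm39, and capitals mark the letters GAGGAA or their reverse complement TTCCTC, a core of the binding motif of the myeloid factor PU.1.
Cd82, chr2:93292798-93293097, minus strand: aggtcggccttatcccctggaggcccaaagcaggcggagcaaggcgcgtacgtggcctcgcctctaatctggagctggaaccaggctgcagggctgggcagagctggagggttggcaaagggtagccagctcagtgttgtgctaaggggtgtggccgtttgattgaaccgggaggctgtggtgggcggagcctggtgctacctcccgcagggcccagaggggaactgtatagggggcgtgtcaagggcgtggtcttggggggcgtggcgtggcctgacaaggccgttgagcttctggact
Cd37, chr7:44888215-44888514, minus strand: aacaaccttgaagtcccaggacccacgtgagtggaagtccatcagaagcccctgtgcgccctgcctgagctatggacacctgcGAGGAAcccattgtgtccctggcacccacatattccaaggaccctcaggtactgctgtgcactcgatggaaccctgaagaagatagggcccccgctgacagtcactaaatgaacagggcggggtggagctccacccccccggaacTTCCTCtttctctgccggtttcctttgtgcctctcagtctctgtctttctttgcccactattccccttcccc
Cd53, chr3:106697481-106697780, minus strand: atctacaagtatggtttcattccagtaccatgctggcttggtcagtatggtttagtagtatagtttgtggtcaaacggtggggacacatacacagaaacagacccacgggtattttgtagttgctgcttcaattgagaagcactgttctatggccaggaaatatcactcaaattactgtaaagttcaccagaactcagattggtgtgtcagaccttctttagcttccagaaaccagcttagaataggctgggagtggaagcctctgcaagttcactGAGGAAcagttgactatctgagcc

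Counted from 0 at the first transcribed base, the matches lay at -167 to -162 and -22 to -17 in Cd37 and at 26 to 31 in Cd53. The Cd82 window held none, nor did it hold a match to the other motifs searched on both strands. Among the 27 members, 8 held the PU.1 letters (Cd37, Cd53, Cd63, Tspan6, Tspan9, Tspan31, Tspan32 and Tspan33), against 27.5% of the 21770 windows of protein-coding genes. The kB motif of NF-kB stood in 6 members (Tspan2, Tspan4, Tspan5, Tspan7, Tspan9 and Tspan11) against 8.97% of all windows, and TGANTCA, the AP-1 motif, in Tspan15 against 7.14%. GAAANNGAAA, an interferon response motif, and TGACGTCA, the cyclic AMP response element, stood in 0 members, against 3.84% and 2.44% of all windows. These matches describe the letters of the windows and are not measured binding sites.

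Of the 27 members, 26 had at least 1 count and 18 passed the filter on low counts. The other 9 were read rarely or not at all. Tspan18 had 127 counts over all 16 libraries, Tspan7 had 82, Tspan8 had 39, Tspan10 had 20, Tspan15 had 19, Tspan1 had 6, Tspan6 had 5 and Tspan12 had 1. Tspan11 had 0 counts in every library, which allows up to 3 counts per library by counting error. TSPAN7 has been studied in the cytoskeleton of mouse osteoclasts and TSPAN10 in their Notch signalling, and neither gene could be compared at these counts.

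Compared per length, the level of the family was carried by a few genes. FPKM, a read count divided by gene length and library size, was 393 ± 19.4 (SD, n = 4) for Cd53 in M + vector, 141 ± 8.85 for Cd63, 105 ± 4.93 for Cd9 and 56.8 ± 0.6 for Cd81. Together these 4 genes made 76.2% of the FPKM summed over the members in M + vector, 75.6% in M + iBRD9, and 72.4% and 71.5% in the vector and iBRD9 groups with RANKL. Cd53 encodes a leukocyte tetraspanin, and its libraries lay above those of every other member in every group.

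**Figure D1:**
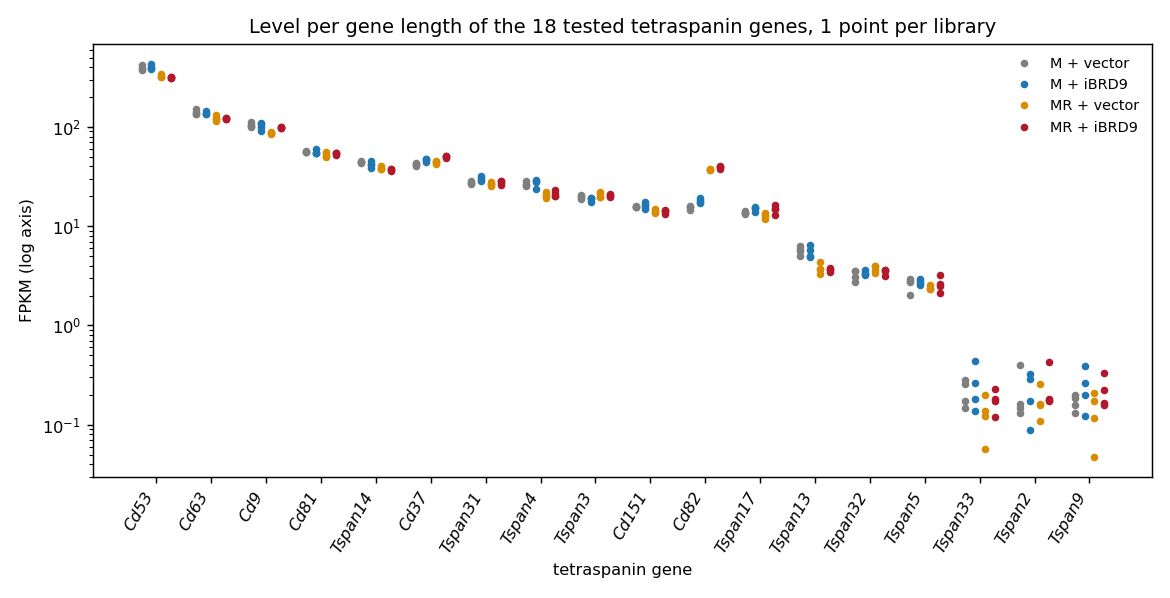
FPKM of the 18 tested tetraspanin genes on a log axis, with 1 point per library and a colour per group, ordered by the mean in M + vector. Cd53, Cd63, Cd9 and Cd81 lead in all groups, Cd82 stands higher in the RANKL groups, and Tspan33, Tspan2 and Tspan9 lie below 1 FPKM.

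Behind the leading genes the order in M + vector ran through Tspan14 (44.3 ± 0.722 FPKM) and Cd37 (41.7 ± 1.44), whose libraries overlapped, then Tspan31 (27.5 ± 0.838) and Tspan4 (26.7 ± 1.42), which also overlapped. Tspan3 followed at 19.8 ± 0.748 FPKM. Cd151 (15.7 ± 0.235) and Cd82 (15.4 ± 0.498) overlapped. Tspan17 (13.6 ± 0.344), Tspan13 (5.71 ± 0.526), Tspan32 (3.23 ± 0.406) and Tspan5 (2.63 ± 0.426) followed, the last pair overlapping, and Tspan33, Tspan2 and Tspan9 stood between 0.168 and 0.215 FPKM with overlapping libraries. The order of the first 4 genes was the same in the 4 groups. All these places rest on the deposited gene lengths, which can differ from the exon bases in GENCODE. The deposited length was 2650 against 8132 bases for Tspan14 and 4274 against 8136 for Tspan3. The place of Cd82 was 11 and 10 without RANKL (vector and iBRD9) and 7 and 6 with it.

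The response to RANKL was measured first in vector-treated cells. Of the 18 tested members, 1 rose and 8 fell (50.0% called), where 40.7% of all 11559 tested genes were called, 20.1% higher and 20.6% lower. The members that fell were Tspan13, Tspan4, Cd53, Cd9, Tspan14, Cd63, Cd151 and Cd81, which made 44.4% of those tested. The median log2 change was -0.196 over the members and -0.001 over all genes. The libraries of both groups did not overlap for 10 members (55.6%, against 38.1% of all genes), which were the 9 called members and Tspan17.

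Cd82, also named KAI1 and known as a suppressor of cell motility and metastasis, was the member that rose. Its level in M + vector was 46.9, 46.8, 44.6 and 48.6 CPM in replicates 1 to 4. In MR + vector it was 111, 113, 109.5 and 111 CPM. Every RANKL library was thus well above every library without it. The log2 change was 1.25 ± 0.05 (SE), a 2.38-fold difference (adjusted p = 2.88e-20, edgeR quasi-likelihood test), with a 95% interval of 1.15 to 1.35. Tspan18, the nearest member on chromosome 2, begins 84605 bases away with no protein-coding gene between, and it was not tested at its count.

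Tspan13, a small tetraspanin related to TSPAN31 and studied in osteoclast formation in mouse cells, had the largest fall among the members called. It measured 14.65, 12.6, 15.75 and 14.1 CPM in M + vector. In MR + vector it measured 9.13, 9.21, 8.07 and 10.8 CPM, and the groups did not overlap. The log2 change was -0.62 ± 0.11, or 0.652 times the level (adjusted p = 3.48e-05, edgeR quasi-likelihood test).

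Tspan4, Cd53 and Cd9 are given in full as well, a choice made after their values were seen. Tspan4, which takes part in the migrasomes left behind by migrating cells, measured 67.1, 67.5, 75.1 and 70.8 CPM in M + vector. It measured 54.0, 50.15, 57.6 and 51.9 CPM in MR + vector, a log2 change of -0.39 ± 0.06 (adjusted p = 6.85e-06, edgeR). All 4 libraries with RANKL lay below all 4 without it.

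Cd53 measured 673, 664, 681 and 745 CPM in M + vector. It measured 553, 592, 557 and 567 CPM in MR + vector, a log2 change of -0.28 ± 0.04 (adjusted p = 8.38e-07, edgeR). The highest library with RANKL stayed below the lowest without it.

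Cd9, a restraint on macrophage fusion, measured 211, 215, 229.8 and 208 CPM in M + vector. It measured 174, 182.5, 177 and 177 CPM in MR + vector, a log2 change of -0.28 ± 0.05 (adjusted p = 1.01e-05, edgeR). The libraries did not overlap here either.

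The other 4 members that fell did so by smaller amounts. Tspan14, a TspanC8 tetraspanin, ranged from 116 to 120.3 CPM in M + vector and from 98.3 to 105.6 in MR + vector, a log2 change of -0.23 ± 0.05 (adjusted p = 0.000165, edgeR). Cd63 ranged from 497 to 572 CPM and from 418 to 483.5, a change of -0.22 ± 0.04 (adjusted p = 0.000152, edgeR). Cd151, a partner of laminin-binding integrins, ranged from 42.8 to 44.6 CPM and from 36.8 to 40.3, a change of -0.17 ± 0.06 (adjusted p = 0.0206, edgeR), and its call was lost without M + vector replicate 4 or MR + vector replicate 3 or 4, with adjusted p up to 0.0716. Cd81, the other restraint on fusion, ranged from 164 to 167 CPM and from 143 to 159, a change of -0.14 ± 0.04 (adjusted p = 0.00891, edgeR). The other called changes kept their calls when each library was left out in turn.

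Markers of macrophages and of other cells were measured beside these falls. Pf4, a platelet chemokine gene that macrophages can also express, was 199 to 229 CPM in M + vector and 104 to 119.5 in MR + vector. Of 4 tested megakaryocyte and platelet markers, Pf4 alone was called. Between these groups mean Ppbp went from 0.813 to 0.928 CPM, Gp1ba from 0.56 to 0.687 and Itga2b from 0.471 to 0.179. The 6 stromal and osteoblast markers summed to 16.1 to 19.3 and 10.5 to 12.4 CPM, and the 7 neutrophil markers to 66.4 to 72.9 and 55.3 to 64.9. Of the 8 macrophage markers, 1 rose (Lyz2) and 6 fell (75.0%, against 20.6% of all genes). In iBRD9-treated cells 7 fell (87.5%, against 25.8% of all genes). The part of all these markers in the changes of the members was not tested.

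**Figure D2:**
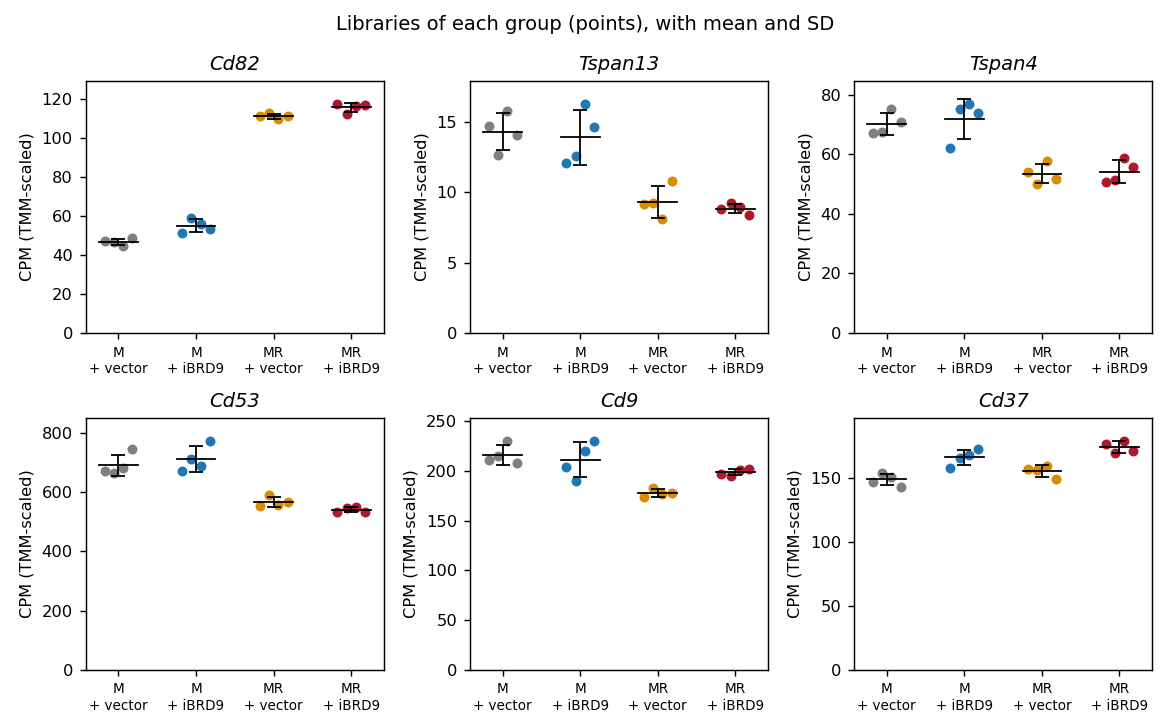
CPM of Cd82, Tspan13, Tspan4, Cd53, Cd9 and Cd37 in each library (points), with the mean and SD of the 4 libraries of a group as bars and each vertical axis starting at 0. Cd82 separates the RANKL groups (109.5 to 117 CPM) from the others (44.6 to 58.9), Tspan13, Tspan4 and Cd53 are lower with RANKL, and Cd37 is higher with iBRD9 in each culture state.

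The same RANKL comparison was made in iBRD9-treated cells, which shares no library with the first. Of the 18 members, 1 rose and 7 fell (44.4% called), where 50.4% of all genes were called, 24.6% higher and 25.8% lower. The 7 were Tspan13, Tspan4, Cd53, Cd151, Cd63, Tspan14 and Tspan31, or 38.9% of the members tested. The median log2 change was -0.149 over the members and -0.013 over all genes. Groups did not overlap for 9 members (50.0%, against 42.8% of all genes), the 8 called and Cd81.

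Cd82 again stood apart. In M + iBRD9 it measured 51.3, 58.9, 56.0 and 53.4 CPM. In MR + iBRD9 it measured 117, 112, 116 and 117 CPM. The ranges lay far apart, and the log2 change was 1.07 ± 0.05, or 2.10-fold (adjusted p = 7.88e-19, edgeR quasi-likelihood test), with a 95% interval of 0.98 to 1.17.

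Tspan13 measured 12.05, 12.6, 16.25 and 14.6 CPM in M + iBRD9. In MR + iBRD9 it measured 8.78, 9.20, 8.93 and 8.39 CPM. The groups did not overlap, and the log2 change was -0.65 ± 0.11 (adjusted p = 1.22e-05, edgeR).

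Tspan4 measured 62.1, 75.2, 76.9 and 73.7 CPM in M + iBRD9 and 50.65, 51.2, 58.9 and 55.7 in MR + iBRD9. Replicate 1 of M + iBRD9 lay nearest to the RANKL libraries without reaching them, and the log2 change was -0.41 ± 0.06 (adjusted p = 2.13e-06, edgeR). Cd53 measured 672.5, 713, 690.2 and 775 CPM in M + iBRD9 and 533, 545.5, 550.2 and 534.5 in MR + iBRD9. All RANKL libraries were lower, with a log2 change of -0.40 ± 0.04 (adjusted p = 8.47e-10, edgeR).

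Cd9 was not called in iBRD9-treated cells. It measured 204, 189.9, 219.9 and 230.3 CPM in M + iBRD9 and 196.5, 195, 200.5 and 201 in MR + iBRD9. The second library without RANKL was below all those with it, so that the groups overlapped. The log2 change was -0.09 ± 0.05 (95% interval -0.19 to 0.01, adjusted p = 0.113, edgeR), and it was called without that library (adjusted p = 0.0201). With another library left out, the adjusted p was up to 0.578.

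Of the remaining members, Cd63 fell by 0.23 on the log2 scale (adjusted p = 4.92e-05, edgeR), Tspan14 by 0.22 (adjusted p = 0.000171) and Cd151 by 0.26 (adjusted p = 0.000485). Tspan31, whose gene overlaps Cdk4 on the opposite strand, ranged from 62.4 to 71.6 CPM in M + iBRD9 and from 56.4 to 60.6 in MR + iBRD9, a log2 change of -0.18 ± 0.05 (adjusted p = 0.00452, edgeR). None of the 8 called members lost its call when a library was left out, and without M + iBRD9 replicate 4 the number called was 9. The member added there was neither Cd9 nor Cd81, and neither its name nor its direction is given here. In vector-treated cells the change of Tspan31 was -0.07 ± 0.05 (adjusted p = 0.33). Cd81 changed by -0.09 ± 0.04 here (adjusted p = 0.0786, edgeR) and was not called. Pf4 was 187 to 237 CPM in M + iBRD9 and 86.1 to 97.9 in MR + iBRD9, and it alone was called among 4 tested megakaryocyte and platelet markers. The neutrophil markers summed to 63.7 to 90.3 and 33.6 to 49.5 CPM. The part of Pf4 and these markers in the changes of the members was not tested.

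Set side by side, the responses to RANKL had the same sign in 16 of 18 members (88.9%, against 82.1% of all genes). In both comparisons 7 of 18 members were called with the same sign, where 4001 of all 11559 genes were. The 7 members were Cd82, Tspan13, Tspan4, Cd53, Cd63, Tspan14 and Cd151. Tspan32 and Tspan2 had opposite signs and were called in neither. The difference between both responses is the interaction, described after the iBRD9 comparisons.

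**Figure D3:**
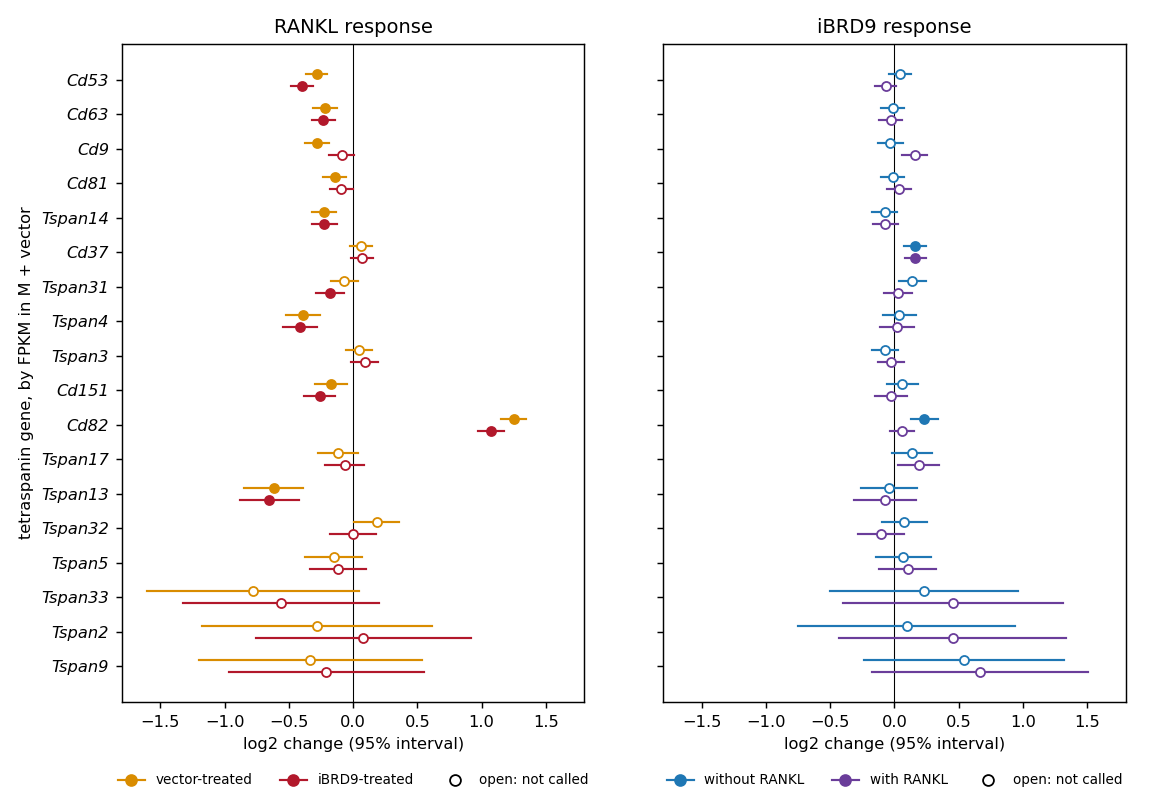
Log2 change of the 18 tested tetraspanin genes with RANKL (left, vector-treated and iBRD9-treated cells) and with iBRD9 (right, without and with RANKL), as estimate with 95% interval. Filled points were called at an adjusted p below 0.05, and Cd82 is the one gene to the right of 1 with RANKL while most of the others lie at or left of 0.

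Inhibition of BRD9 moved few members. With RANKL, 1 of 18 members was called, a rise (5.56%), where 2.77% of all genes were called, 0.718% higher and 2.05% lower. Without RANKL, 2 members were called, both rises (11.1%), where 6.81% of all genes were called, 3.08% higher and 3.73% lower. The median log2 change of the members was 0.031 with RANKL and 0.066 without it, and that of all genes was 0 and 0.002. Groups did not overlap for 3 members with RANKL (16.7%, against 9.54% of all genes), Cd37, Cd9 and Cd53, and for 2 without it (11.1%, against 10.1%), Cd82 and Cd37. Markers of macrophages, osteoclasts and other cells were measured beside these counts. With RANKL, 4 of 8 macrophage markers and 3 of 7 neutrophil markers fell with iBRD9 and none of either list rose. The calls of all 3 neutrophil markers were lost without MR + vector replicate 1, 2 or 4 or MR + iBRD9 replicate 2 or 4, and that of the macrophage marker Adgre1 was lost in 5 such fits. Pf4 fell by 0.31 on the log2 scale (adjusted p = 0.00201, edgeR), and it alone was called among 4 tested megakaryocyte and platelet markers. The neutrophil markers summed to 55.3 to 64.9 CPM in MR + vector and 33.6 to 49.5 in MR + iBRD9. Of 6 tested osteoclast markers, Mmp9 rose and Ctsk fell with iBRD9, both with RANKL and without it. Without RANKL, 2 macrophage markers rose and 1 fell, and 0 of 7 neutrophil markers were called by edgeR. The part of these markers in the changes of the members was not tested. Each comparison with iBRD9 shares 1 group of libraries with each RANKL comparison.

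Cd37, a leukocyte tetraspanin known from B cells and from immune receptor signalling, was the member called in both. Over all 11559 genes, 119 were called in both with the same sign. Without RANKL Cd37 measured 147, 154, 150.2 and 143 CPM in M + vector. In M + iBRD9 it measured 158, 165.5, 167.5 and 172 CPM. All iBRD9 libraries were higher, and the log2 change was 0.16 ± 0.04, or 1.12-fold (adjusted p = 0.0165, edgeR quasi-likelihood test). The call was lost without M + vector replicate 1 or 4 or M + iBRD9 replicate 3 (adjusted p up to 0.0822), and when these 2 groups were fitted alone (adjusted p = 0.065). Without M + iBRD9 replicate 4 it was 0.13 ± 0.04 (adjusted p = 0.0449).

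With RANKL, Cd37 measured 157, 156, 159 and 149 CPM in MR + vector. In MR + iBRD9 it measured 176, 169, 179 and 171 CPM. The groups did not overlap, and the log2 change was again 0.16 ± 0.04, or 1.12-fold (adjusted p = 0.0225, edgeR). The call was lost without MR + vector replicate 1, 2 or 4 or MR + iBRD9 replicate 1 or 3, with adjusted p up to 0.113. RANKL itself left Cd37 uncalled, with log2 changes of 0.06 ± 0.04 (adjusted p = 0.243) and 0.07 ± 0.04 (adjusted p = 0.18) in vector-treated and iBRD9-treated cells. The 5 listed B cell markers with a count, led by Cd79b, summed to 1.61 to 3.84 CPM over the 4 groups. The part of B cell RNA in the level of Cd37 was not tested.

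Cd82 rose with iBRD9 in cells without RANKL, from the values of M + vector (44.6 to 48.6 CPM) to those of M + iBRD9 (51.3 to 58.9). The groups did not overlap, and the log2 change was 0.23 ± 0.05, or 1.18-fold (adjusted p = 0.00342, edgeR). The call held without each library in turn, with adjusted p up to 0.0258, and without M + iBRD9 replicate 4 the change was 0.24 ± 0.05 (adjusted p = 0.00252). With RANKL the ranges were 109.5 to 113 and 112 to 117 CPM and overlapped, with a log2 change of 0.06 ± 0.05 (95% interval -0.04 to 0.15, adjusted p = 0.656, edgeR). The difference between these responses was -0.18 ± 0.07 (adjusted p = 0.203, edgeR), so that it was not shown to differ.

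Cd9 was higher in all MR + iBRD9 libraries (195 to 201 CPM) than in all MR + vector libraries (174 to 182.5) but missed the threshold, with a log2 change of 0.16 ± 0.05 (adjusted p = 0.0657, edgeR). It was called under 5 of the other settings and without M + iBRD9 replicate 2 or 4, which lie outside the groups compared. With each library left out in turn, the adjusted p ranged from 0.0202 to 0.181. Without RANKL the change was -0.03 ± 0.05 (adjusted p = 0.759, edgeR). The interaction of Cd9 was 0.19 ± 0.07 (adjusted p = 0.141, edgeR). When each library was left out in turn, it was called only without M + iBRD9 replicate 4 (adjusted p = 0.0145). Its adjusted p in the other such fits was up to 0.289. CD9 is also abundant on platelets. Of the listed platelet lineage markers, Itga2b, Gp1ba and Gp9 each measured at most 1.31 CPM and Ppbp at most 1.34 CPM in any library, while Pf4 was at 86.1 to 119.5 CPM in the RANKL groups. The part of platelet RNA in the level of Cd9 was not tested.

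Cd53 with RANKL was 553 to 592 CPM with vector and 533 to 550.2 with iBRD9. These ranges did not overlap, yet the log2 change of -0.07 ± 0.04 was not called (adjusted p = 0.513, edgeR). In the interaction, 0 of 18 members were called by the edgeR test, where 2.08% of all genes were called, 1.00% higher and 1.08% lower. DESeq2 also called 0 of them. Without M + iBRD9 replicate 4 the interaction was called for 1 member, Cd9, and for 541 genes in all in place of 241. In the fit of all 16 libraries, 2 members had an unadjusted edgeR p below 0.05 for the interaction, Cd82 and Cd9. Their adjusted edgeR p were 0.203 and 0.141. The share of all genes below that unadjusted level is not given here, so that this count shows no excess.

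The TspanC8 subgroup has 6 members, of which Tspan5, Tspan14, Tspan17 and Tspan33 were tested. Tspan14 fell in both RANKL comparisons and the other 3 were not called in any comparison. Tspan5, which has been studied in osteoclast formation in mouse cells, ranged from 14.9 to 23.2 CPM over all libraries, and its log2 change with RANKL was -0.15 ± 0.11 (adjusted p = 0.278, edgeR) and -0.12 ± 0.11 (adjusted p = 0.376) in vector-treated and iBRD9-treated cells. Tspan17 ranged from 19.6 to 26.4 CPM, and its largest log2 change was 0.19 ± 0.08 with iBRD9 in the presence of RANKL (adjusted p = 0.249, edgeR). Tspan33, known from B cells and erythroid cells, had 5 to 38 counts per library, so that its change with RANKL of -0.78 ± 0.40 (95% interval -1.60 to 0.04, adjusted p = 0.125, edgeR) was not resolved at this depth.

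Other uncalled members split by depth. Tspan3 ranged from 76.0 to 94.8 CPM, and its log2 changes lay between -0.07 and 0.09 with SE of at most 0.05 in the RANKL and iBRD9 comparisons. Tspan32, a leukocyte tetraspanin, ranged from 17.3 to 24.6 CPM and changed by 0.18 ± 0.09 with RANKL in vector-treated cells (adjusted p = 0.0958, edgeR). Tspan2 had 7 to 34 counts per library and Tspan9 had 4 to 37, with SE of 0.37 to 0.44 on the log2 scale in the RANKL and iBRD9 comparisons, so that a change of the size seen in Tspan13 was not detectable in them at this depth.

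The partners of tetraspanins were read from a list of 25 genes, 24 of them listed and 23 tested. This list and that of the fusion genes below were chosen with earlier results of these data known. Their shares of calls thus describe the listed genes and do not test for an excess over all genes. With RANKL in vector-treated cells 8 rose and 9 fell (73.9%, against 40.7% of all genes), and in iBRD9-treated cells 7 rose and 8 fell (65.2%, against 50.4%). Icam1, an adhesion ligand of leukocyte integrins, rose from 44.8 to 49.5 CPM in M + vector to 125 to 133 in MR + vector, a log2 change of 1.44 ± 0.05 (adjusted p = 7.08e-22, edgeR). Adam17, a sheddase, changed by 0.54 ± 0.04 and Cd44, the hyaluronan receptor, by 0.39 ± 0.05. Cd36, a scavenger receptor found with CD9 in macrophages, fell by 1.24 on the log2 scale (adjusted p = 3.22e-23, edgeR). Itga6, a laminin-binding integrin chain that associates with CD151, fell by 0.88 and Sdcbp, the CD63-binding adaptor syntenin, by 0.42.

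Adam10, the protease that TspanC8 proteins escort, measured 277 to 302 CPM in M + vector and 256.5 to 273 in MR + vector. Its log2 change was -0.11 ± 0.04 (adjusted p = 0.0291, edgeR), a call lost without M + vector replicate 1 or 4 or MR + vector replicate 3 or 4 (adjusted p up to 0.133). In iBRD9-treated cells it was -0.13 ± 0.04 (adjusted p = 0.00991), lost without M + iBRD9 replicate 2 (adjusted p = 0.0598). Of the Notch receptors, which ADAM10 cleaves, 3 of 4 were tested and Notch1 fell in both RANKL comparisons, by 0.69 (adjusted p = 2.32e-06, edgeR) and 0.75 (adjusted p = 3.5e-07) on the log2 scale.

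With iBRD9, 5 partners were called in the presence of RANKL (2 higher, 3 lower, 21.7% against 2.77% of all genes) and 6 without it (3 higher, 3 lower, 26.1% against 6.81%). When each library was left out in turn, these counts ranged from 1 to 5 and from 4 to 6. Itga6 fell in both, by 0.25 (adjusted p = 0.000395, edgeR) and 0.17 (adjusted p = 0.00851) on the log2 scale, and kept both calls without each library in turn. Without RANKL, Cd36 rose by 0.25 (adjusted p = 3.88e-05), Icam1 rose by 0.22 (adjusted p = 0.00689) and Cd44 fell by 0.24 (adjusted p = 0.00272) on the log2 scale. In the interaction Cd44 (0.29 ± 0.07, adjusted p = 0.0263) and Sirpa (-0.19 ± 0.04, adjusted p = 0.0182) were called, and neither call held without each library in turn.

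The 8 listed genes of macrophage and osteoclast fusion were all called with RANKL in both treatments, 4 higher and 4 lower, where 40.7% and 50.4% of all genes were called. In vector-treated cells Mmp9, a secreted protease, changed by 3.19 ± 0.05 and Sbno2, a transcriptional co-regulator, by 0.61 ± 0.05 on the log2 scale. Ocstamp, a fusion receptor of osteoclasts, had 0 counts in each M + vector library and 11 to 19 in MR + vector. Atp6v0d2, a subunit of the proton pump, fell by 1.16 on the log2 scale, and the surface receptor genes Trem2 and Cd200r1 fell by 0.79 and 0.44. With iBRD9 in the presence of RANKL 2 of the 8 were called (25.0%, against 2.77% of all genes). Mmp9 rose by 0.23 (adjusted p = 0.00198, edgeR) and Cd200r1 fell by 0.31 (adjusted p = 0.000126). Without RANKL 2 were called as well (25.0%, against 6.81%), where Mmp9 rose by 0.31 (adjusted p = 0.000205) and Trem2 by 0.12 (adjusted p = 0.0482), and the call of Trem2 was lost in 13 of the 16 fits that each left out 1 library.

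Of 4 tetraspanin relatives outside the naming rule, Rom1 was the one that could be tested, at 1.47 to 4.23 CPM, and it was not called in any comparison. Several members lie in pairs on the genome. Cd151 and Tspan4, separated by 3766 bases on chromosome 7, both fell with RANKL. Tspan32 and Cd81 are separated by 33094 bases on the same chromosome. With RANKL in vector-treated cells their log2 changes were 0.18, not called, and -0.14, called. In iBRD9-treated cells they were -0.0017 and -0.09, and neither was called. Tspan11 and Tspan9 are 7418 bases apart on chromosome 6.

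The sources used here do not give the strand setting of the counting, so that reads of antisense genes cannot be told apart from those of members. In GENCODE, exons of Tspan4 share 746 bases with Polr2l and 292 with Chid1, exons of Tspan31 share 646 with Cdk4 and those of Cd37 share 223 with Tead2, all on the opposite strand. Polr2l, Chid1 and Tead2 were not called in any of the 5 comparisons. With RANKL in vector-treated and iBRD9-treated cells Chid1 had the sign of Tspan4, at -0.125 and -0.149 (adjusted p = 0.134 and 0.0607, edgeR). Polr2l had the opposite sign, at 0.116 and 0.238 (adjusted p = 0.409 and 0.0503, edgeR). The part of such reads in the change of Tspan4 was not tested. Cdk4 was called once, with a log2 change of 0.15 ± 0.04 for RANKL in iBRD9-treated cells (adjusted p = 0.00472, edgeR), opposite in sign to Tspan31. Cd9, Cd63, Cd81, Cd151 and Tspan13 overlap long non-coding genes over 88 to 429 exon bases, and no exon overlap was listed for Cd82, Cd53, Tspan14, Tspan3 or Tspan17.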

How the data were processed

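RNA was measured by sequencing in 16 libraries, 4 per group. Per the submitters' processing notes and the paper's methods, the authors used Cutadapt for trimming, HISAT2 with GRCm39 for alignment and HTSeq for counting, and they deposited unnormalized read counts. FPKM values were deposited by the authors beside the counts, made from the counts and a gene length. The annotation release and the strand setting are not given in the sources used here. Groups came from the treatment labels.

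Counts were tested in edgeR 4.0.16 (R 4.3.3) with TMM scaling, filterByExpr by group (11559 of 21898 genes kept), 1 fit over 16 libraries with a mean per group, and the two-sided quasi-likelihood test. p-values were Benjamini-Hochberg adjusted over all genes tested, and a gene was called below 0.05. Every adjusted p printed comes from this test, except where another setting or a left-out library is named beside it. Changes are log2 estimate ± SE, and intervals are 95%. Intervals and SE come from this fit and include the spread between libraries, and the floor of 3 counts covers counting error only.

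The family as a subject and the gene lists were chosen with earlier results of these data known, and the 27 members follow from gene names. Values per library were given for members called with a log2 change of at least 0.5 with RANKL or called with iBRD9 or in the interaction, and up to 3 genes per direction with the smallest p were named from each other list. Alternatives were RLE scaling, total counts, no filter and a stricter filter, a replicate block, the groups compared alone, DESeq2 1.42.0 and leaving out each library. Libraries within a group were compared by chi-square over genes, and each of the 24 pairs differed by more than counting error (2.83 to 11.7 per degree of freedom, the highest for M + iBRD9 replicate 4). Promoter windows and exon overlaps came from GENCODE M39 on GRCm39. Of the 27 members, 3 had the same ends there as in the deposited table.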

Additional observations from a re-analysis of the deposited data

Results flagged for a closer look

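In 6 of 72 sets of 4 libraries (18 members in 4 groups), 1 library stood far from the other 3 by Dixon's ratio of gap to range, where chance gives about 1 in 20. Tspan32 was 19.3 CPM in MR + iBRD9 replicate 1, with the nearest library at 22.0 and the highest at 22.2. Cd151 was 44.6 CPM in M + vector replicate 4, against 43.1 for the nearest and 42.8 for the lowest. Tspan2, a gene with few reads, was 1.91 CPM in M + vector replicate 2 against 0.768 for the nearest, and 1.98 CPM in MR + iBRD9 replicate 3 against 0.858. Cd81 was 178 CPM in M + iBRD9 replicate 4, with the others at 157 to 160, and 149 CPM in MR + iBRD9 replicate 3, with the others at 154 to 155. Cd151 fell with RANKL in vector-treated cells and lost that call without the library named here. The libraries of Cd81 belong to iBRD9-treated cells, where Cd81 was not called.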

How the results depend on the processing

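Under 7 other settings, the calls of named members kept their direction, and no change reversed. The number of members called with iBRD9 in the presence of RANKL was 2 in place of 1 under total counts, without the filter, with a replicate block, with the groups compared alone and with DESeq2, the added member being Cd9 each time (adjusted p 0.0327, 0.0279, 0.0343, 0.00512 and 0.0446). Over all genes, with the groups compared alone, that comparison gave 499 calls in place of 320 and iBRD9 without RANKL gave 452 in place of 787, and the interaction gave 388 in place of 241 without the filter, 421 with the replicate block and 371 with DESeq2. Cd37 without RANKL was not called with the groups compared alone (0.16, adjusted p = 0.065). The cause was not tested. Under total counts, 38.5% of the calls of iBRD9 with RANKL were higher (25.9% with TMM), and 67.3% of those of the interaction (48.1% with TMM). With 1 library left out, members called ranged from 8 to 10 and from 8 to 9 for RANKL in vector-treated and iBRD9-treated cells, from 0 to 2 and from 1 to 3 for iBRD9 with and without RANKL, and from 0 to 1 for the interaction, and all genes called ranged from 4278 to 4948, from 5367 to 5899, from 199 to 411, from 463 to 1104 and from 73 to 541. The correlations of 24 same-numbered pairs of libraries were -0.045 to 0.14, with a median of 0.0165, and 2 exceeded 0.1. Both joined M + iBRD9 replicate 4, with replicate 4 of M + vector (0.14) and of MR + iBRD9 (0.113). The lowest also joined it, with MR + vector replicate 4 (-0.045). The 72 other pairs between groups ranged from -0.1 to 0.102, with a median of -0.016. Whether the replicate numbers pair the libraries is not given in the labels, and correlations this small cannot settle it. With the replicate block no named call was lost. The groups compared alone give no interaction. Depth limits Tspan2, Tspan9 and Tspan33, at 4 to 38 counts per library, and the 9 members below the filter.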
